A study of Mus musculus with 19 samples.

Results

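Dnmt1, Dnmt3a, Dnmt3b, Uhrf1, Mbd1, Mbd2 and Mbd3 are genes that write or read DNA methylation. They were followed on 19 microarrays of sorted mouse cortical projection neurons. The 7 genes were taken by symbol from the 18193 genes of the platform and all 7 were measured. They have 20 probe sets in all, and each gene was represented by the probe set with the highest mean over the 19 arrays, a choice that used no difference between groups.

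The neurons came from C57BL/6 mice and carried no genetic modification that the labels record. Fluorescent microspheres had been injected at axon targets and carried back to the cell bodies, which were then isolated by fluorescence-activated cell sorting. Corticotectal projection neurons (CTPN), whose axons reach the midbrain tectum, were collected from visual cortex at postnatal day 14 (P14). Corticospinal motor neurons (CSMN) project to the spinal cord and callosal projection neurons (CPN) to the opposite hemisphere, and both were collected from sensorimotor cortex at embryonic day 18 (E18), P3, P6 and P14. Each of the 9 groups held 2 arrays of independent collections, except CSMN at P3 with 3. All RNA went through 2 rounds of in vitro transcription before hybridisation. Levels are log2 values made by the authors with robust multi-array average (RMA) normalization, and a difference of 1 is a doubling.

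DNA methylation is the addition of a methyl group to cytosine, in most tissues where cytosine precedes guanine (CpG). Dnmt1 copies existing methylation onto the new strand after DNA replication, guided by Uhrf1, which recognises hemimethylated DNA. Dnmt3a and Dnmt3b place methyl groups on sites that had none, and Dnmt3a is known in postnatal neurons for writing methylation outside CpG as well. Mbd1 and Mbd2 bind methylated CpG and recruit repressor complexes, whereas mammalian Mbd3 binds methylated DNA poorly and is a subunit of the nucleosome remodelling and deacetylase complex (NuRD).

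Promoters of the maintenance genes Dnmt1 and Uhrf1 are shown first, as a description of sequence. Their part in the levels given below was not tested. E2F proteins switch on genes of DNA replication and bind sites close to TTTNNCGC. This motif was searched on both strands, counting overlapping matches, in RefSeq windows of 300 bases (250 before and 50 after the transcription start, build GRCm38.p6). It occurred in both windows of Uhrf1 and in 1 of 3 windows of Dnmt1. Of all 32851 mouse windows, 5.17% held it. The motif itself holds a CpG, and the share among windows as rich in CpG as these was not counted. The capitals below mark the matches. For Uhrf1 the 250 bases before each start are given, on the plus strand at chr17:56303087-56303336 and chr17:56304063-56304312. For Dnmt1 30 bases around a pair of overlapping matches are given, on the minus strand at chr9:20952823-20952852.
Uhrf1, first window: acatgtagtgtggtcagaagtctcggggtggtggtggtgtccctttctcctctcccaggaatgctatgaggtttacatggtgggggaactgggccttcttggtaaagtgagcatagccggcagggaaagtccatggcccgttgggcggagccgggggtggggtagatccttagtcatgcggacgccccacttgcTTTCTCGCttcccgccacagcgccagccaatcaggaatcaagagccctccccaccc
Uhrf1, second window: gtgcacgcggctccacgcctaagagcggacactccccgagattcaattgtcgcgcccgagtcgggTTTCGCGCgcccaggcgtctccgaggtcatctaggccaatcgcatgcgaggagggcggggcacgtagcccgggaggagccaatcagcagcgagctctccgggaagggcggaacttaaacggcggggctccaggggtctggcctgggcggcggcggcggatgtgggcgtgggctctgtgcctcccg
Dnmt1: gtttccgcgcGCGCGAAAAAgccggggtct
The motif letters were not found in the windows of Dnmt3a (3), Dnmt3b (1) or Mbd3 (1), and windows of Mbd1 and Mbd2 were not used here. A match describes the sequence and is not a measured binding site. Among the windows of the members, CpG counts did not follow the matches. The windows with a match held 12 and 33 CpG for Uhrf1 and 33 for Dnmt1. Those without held 12 and 2 for Dnmt1, 46, 47 and 18 for Dnmt3a, 30 for Dnmt3b and 22 for Mbd3. The median over all windows was 7.

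Array medians lay between 6.42 and 6.62, and values below that range are read here as low or not separable from background, since the files carry no detection calls. Markers of projection neurons had medians of 10.80 to 12.51 on every array. The CSMN markers Bcl11b, Fezf2 and Crym had medians of 11.57 to 11.79 in CTPN, 10.42 to 12.47 in CSMN and 7.19 to 9.41 in CPN. The CPN markers Cux2, Lmo4 and Lpl had medians of 7.87 to 8.22 in CTPN, 5.91 to 9.23 in CSMN and 8.90 to 11.13 in CPN. Their CSMN and CPN ranges thus overlap. The 9.23 was on CSMN P3 replicate 3, beside 7.63 and 7.74 on replicates 1 and 2, and CPN at E18 had 8.90 to 8.99. The groups at both ends of the age series stand apart from the others. In CPN at E18, 13 markers of dividing cells had medians of 9.42 to 9.66, with 11 of 13 above all array medians, and 12 markers of radial glia and progenitors had medians of 11.00 to 11.43. On all other arrays these ranges were 6.21 to 7.45 and 5.94 to 7.76. Other lists were also lower in CSMN than in CPN at E18, with 4 of 7 astrocyte markers (median difference -2.63), 4 of 8 interneuron markers (-1.39) and 3 of 7 microglia markers (-1.38) past the test. The CSMN P14 arrays agreed least with each other, with a correlation of 0.904 over all genes. Next came both E18 groups, CSMN with 0.949 and CPN with 0.970, and the other groups had 0.979 or more.

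**Figure D1:**
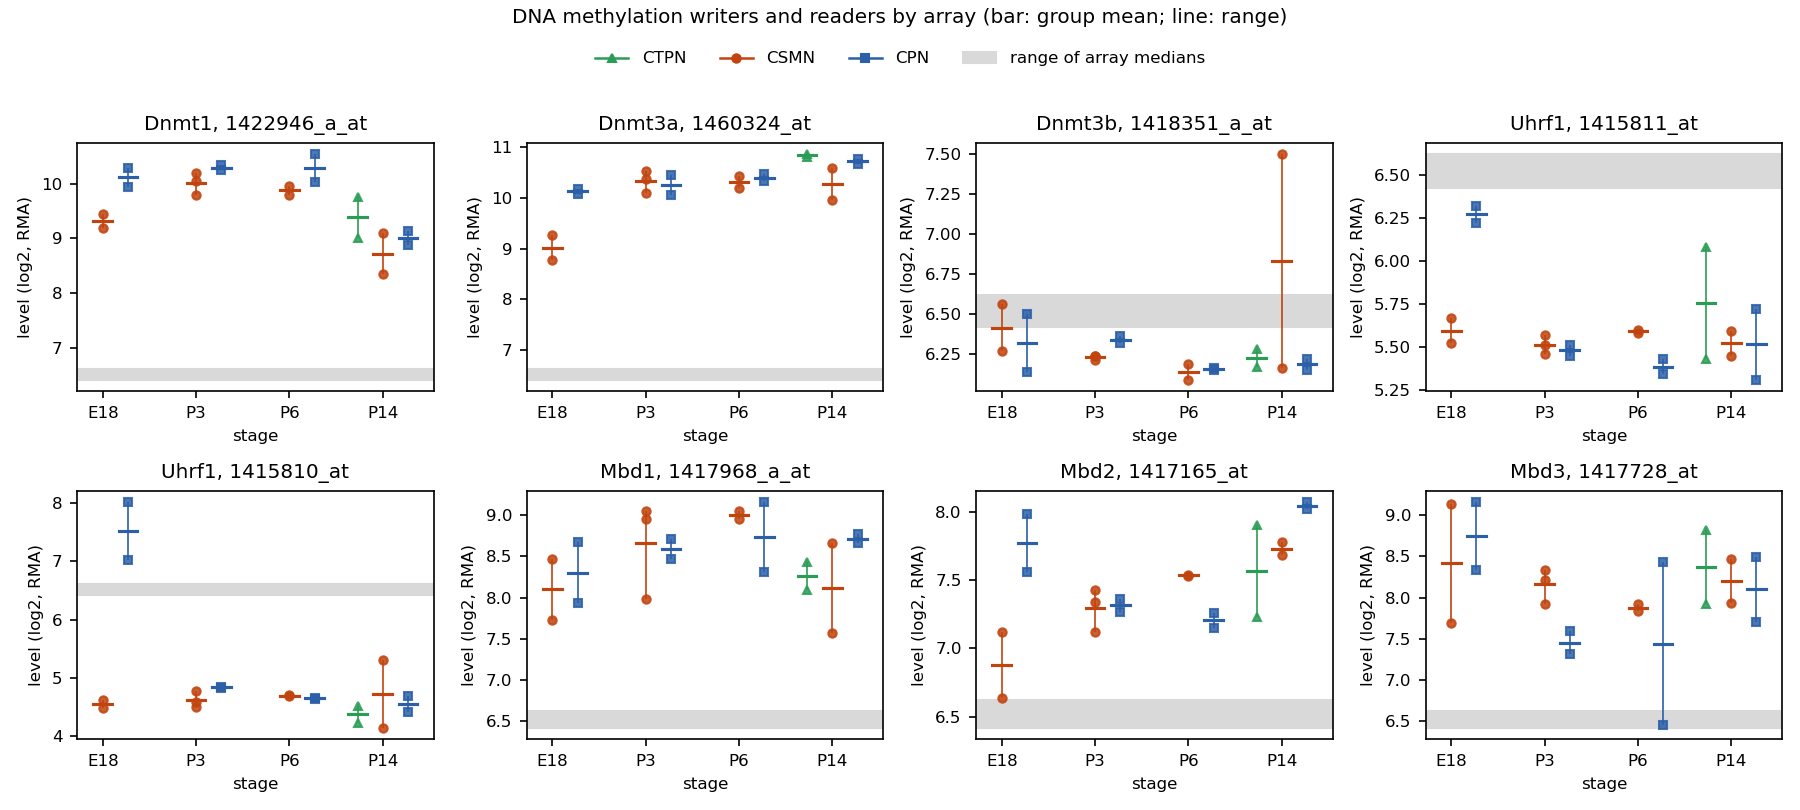
Level (log2, RMA) of each gene by stage, 1 point per array, for CTPN, CSMN and CPN, with group means as bars, the range between arrays as lines and the range of array medians as a grey band. Dnmt1 is lowest at P14 within CSMN and within CPN, Dnmt3a is lowest in CSMN at E18 and probe set 1415810_at of Uhrf1 stands at 7.03 and 8.02 in CPN at E18.

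The maintenance methyltransferase Dnmt1 was expressed on every array and was lowest at P14 within CSMN and within CPN. In CSMN the E18 arrays read 9.45 and 9.18, the P3 arrays 10.04, 10.20 and 9.79, the P6 arrays 9.80 and 9.95, and the P14 arrays 9.10 and 8.34. In CPN the E18 arrays read 9.94 and 10.29, the P3 arrays 10.24 and 10.33, the P6 arrays 10.54 and 10.03, and the P14 arrays 9.13 and 8.88. All P14 arrays of both types lay below every array at P3 and P6. Between P6 and P14, as the mean of both types, Dnmt1 fell by 1.22 on the log2 scale (SE 0.21, 2.32-fold, adjusted p = 0.00136 by limma with Benjamini-Hochberg adjustment over all genes, the test used throughout). It was the only member of 7 past an adjusted p of 0.05 in that step, in which 12.9% of all genes passed and 7.36% fell, so the count itself is near the background. With each array left out in turn this fall stayed between 1.02 and 1.41 and passed the test every time.

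Both other Dnmt1 probe sets were also lowest at P14 within CSMN and within CPN. They differed from the brightest between P3 and P6, as the mean of both types. There 1435122_x_at gave -0.39 ± 0.17 and 1447877_x_at -0.39 ± 0.15 (SE, unadjusted p = 0.0334 and 0.0184, neither past the test). The brightest gave -0.07 ± 0.20. In a test over all 34945 probe sets with 1 symbol, added after the data had been seen, 10.3% of probe sets passed between P6 and P14, and all 3 of Dnmt1 fell. Probe set 1435122_x_at fell by 1.11 (SE 0.17, adjusted p = 0.00106) and 1447877_x_at by 1.13 (SE 0.15, adjusted p = 0.000376). The pattern did not need the E18 arrays. Between P3 and P14 Dnmt1 fell by 1.30 in CSMN (SE 0.27, adjusted p = 0.0058, where 12.6% of genes passed) and by 1.28 in CPN (SE 0.29, adjusted p = 0.0135, where 8.13% did). The difference between these changes was -0.02 ± 0.40 (SE, adjusted p = 0.988). The dividing-cell medians in CSMN were 6.47 to 6.78 at P14, against 6.39 to 7.03 at P3, which overlap. In CPN they were 6.21 to 6.29 at P14, against 7.33 to 7.45 at P3.

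Measured from E18, the Dnmt1 change was less even. At P14 in CPN the level averaged 9.01 ± 0.17, against 10.12 ± 0.25 at E18 (SD, n = 2 each), a difference of -1.11 ± 0.29 (SE, adjusted p = 0.0141). The call was lost without CPN E18 replicate 2 (adjusted p = 0.123) or without CPN P14 replicate 2 (adjusted p = 0.115). At P14 in CSMN it averaged 8.72 ± 0.54, against 9.32 ± 0.20 at E18 (SD, n = 2 each), and the difference of -0.60 ± 0.29 did not pass (adjusted p = 0.196). Without CSMN P14 replicate 1 this value was -0.98 (adjusted p = 0.0293), and without replicate 2 it was -0.21 (adjusted p = 0.613). The other probe sets had differences in CSMN of -0.91 ± 0.24 (adjusted p = 0.0254) and -1.09 ± 0.22 (adjusted p = 0.00488). Between the types at E18, Dnmt1 in CSMN lay below CPN on all arrays, with a difference of -0.80 ± 0.29 that did not pass (adjusted p = 0.0851).

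**Figure D2:**
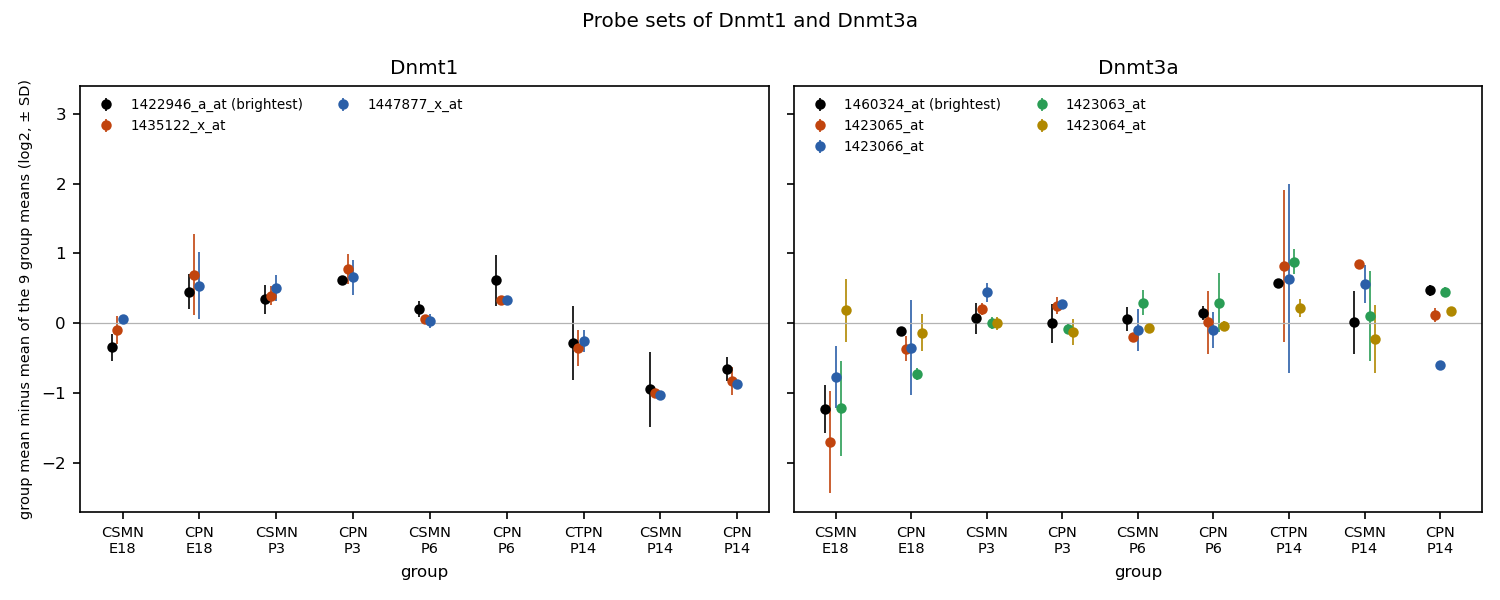
Group means of every probe set of Dnmt1 and Dnmt3a, each minus its own mean over the 9 groups (log2, bars are SD between arrays of a group). The 3 Dnmt1 probe sets are lowest in CSMN and CPN at P14, whereas of the 5 Dnmt3a probe sets 4 are lowest in CSMN at E18 and 1423064_at is not.

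Uhrf1, the partner that brings Dnmt1 to newly replicated DNA, was low in every group but CPN at E18. Its brightest probe set by mean, 1415811_at, lay below the medians of all arrays throughout, between 5.31 and 6.32. The highest values were 6.32 and 6.22 in CPN at E18, against 5.67 and 5.52 in CSMN at E18. The other probe set, 1415810_at, read 7.03 and 8.02 in CPN at E18 and 4.62 and 4.48 in CSMN at E18, and on every other array it lay between 4.14 and 5.31. It thus exceeded the array medians on 2 of 19 arrays, both of CPN at E18.

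Over the 9 group means the 2 probe sets had a Pearson r of 0.88, which CPN at E18 sets, since over the other 8 groups r was -0.68. CSMN minus CPN at E18 was -0.68 ± 0.21 for the first (SE, adjusted p = 0.0453) and -2.97 ± 0.33 for the second (adjusted p = 4.27e-05 over all probe sets). P14 minus E18 in CPN was -0.75 ± 0.21 (adjusted p = 0.0183) and -2.97 ± 0.33 (adjusted p = 2.22e-05). In CSMN, P14 and E18 did not differ past the test, at -0.07 ± 0.21 for the first probe set and 0.17 ± 0.33 for the second. The groups set against CPN at E18 lie below the array medians on both probe sets, and on 1415811_at CPN at E18 does too, so the sizes of these differences depend on background. Set against the highest array median (6.62) in place of the dim values, the CPN E18 average of 7.52 on 1415810_at is 1.87-fold higher. That average is of arrays at 7.03 and 8.02, so 1.87 is not a lower bound for each array. With P3 in place of E18 the change to P14 in CPN was 0.03 for the first probe set and no longer passed, and the E18 difference of that probe set was lost in 13 of the fits that left out 1 array.

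The dividing-cell list moved with Uhrf1 at E18, and later stages cannot show whether it did, since Uhrf1 then lay below the array medians. At E18, 11 of 13 dividing-cell markers were lower in CSMN than in CPN past the test, with a median difference of -2.48, and so were 10 of 12 radial glia and progenitor markers, with a median of -4.85. Mki67, a protein of cycling cells, differed by -4.68 ± 0.24 and Fabp7, a radial glia gene, by -8.35 ± 0.72 (SE). In CPN the dividing-cell medians lay at 6.21 to 6.29 at P14, against 7.33 to 7.45 at P3. P14 minus P3 of Uhrf1 was 0.03 there, but 1415811_at averaged 5.48 at P3 and 5.52 at P14. At such dim values a fall beside the markers could not be seen. Whether the Uhrf1 signal belongs to other cells in the CPN E18 collections was not tested, and in bulk RNA fewer cells of a type and less RNA per cell cannot be told apart. Likeness to Uhrf1 (1415811_at) over the 9 group means was sought among 7149 genes whose means ranged over at least 1. The 3 most alike were Spc24, Rpa2 and Blm (r = 0.991, 0.983 and 0.977). Without CPN at E18 their r was 0.95, 0.90 and 0.88, but they had been picked with those same groups. Since 1415811_at lay below the array medians throughout, these r do not show how Uhrf1 moved at later stages. Spc24 is a kinetochore subunit, Rpa2 binds single-stranded DNA and Blm is a DNA helicase.

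**Figure D3:**
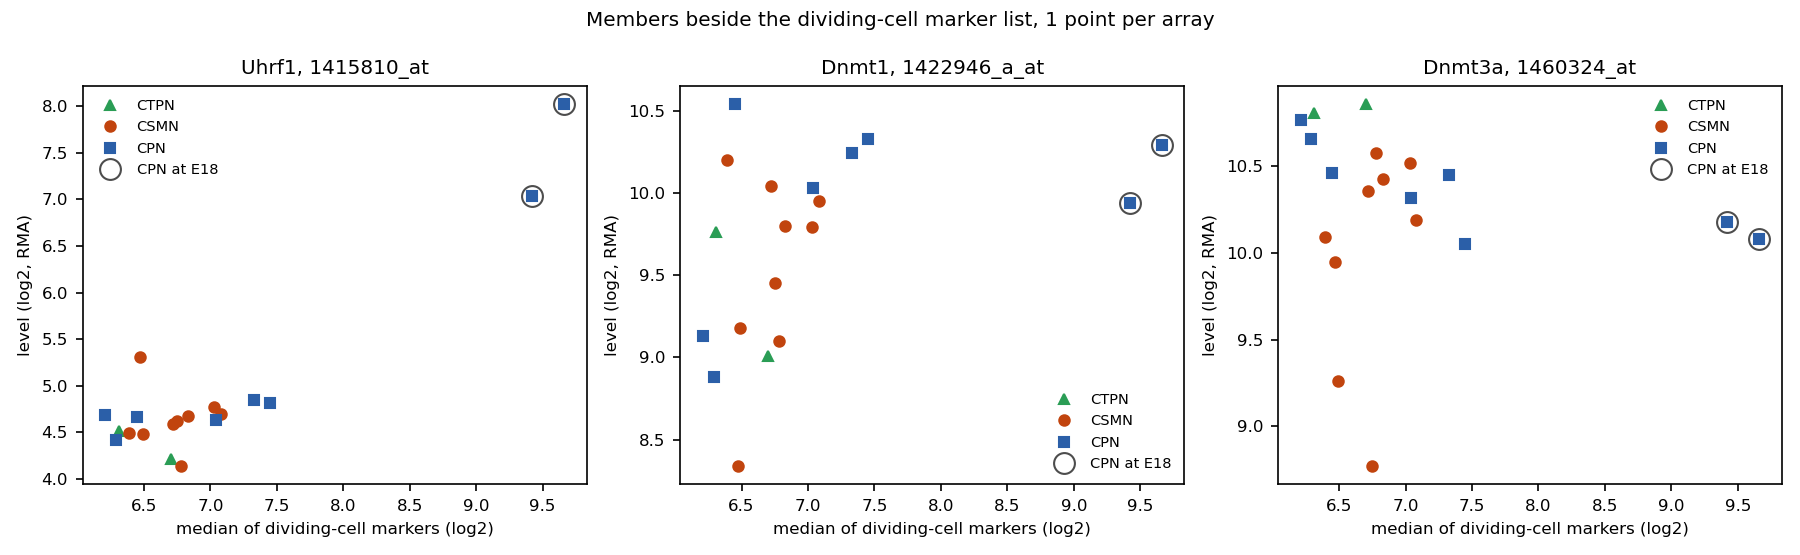
Level (log2, RMA) of Uhrf1 (1415810_at), Dnmt1 and Dnmt3a against the median of 13 dividing-cell markers, 1 point per array, with CPN at E18 circled. Uhrf1 exceeds 7 on both circled arrays and stays at or below 5.31 on the others, whereas Dnmt1 and Dnmt3a are high on many arrays with marker medians under 7.45.

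Dnmt3a, a de novo methyltransferase, was expressed in every group and was lowest in CSMN at E18. Its CSMN levels were 8.77 and 9.26 on E18 arrays, 10.36, 10.09 and 10.52 on P3 arrays, 10.43 and 10.19 on P6 arrays, and 10.58 and 9.95 on P14 arrays. Its CPN levels were 10.18 and 10.08 on E18 arrays, 10.45 and 10.05 on P3 arrays, 10.46 and 10.32 on P6 arrays, and 10.77 and 10.66 on P14 arrays. Both CSMN E18 arrays lay below all other arrays. At E18 Dnmt3a averaged 9.02 ± 0.35 in CSMN and 10.13 ± 0.07 in CPN (SD, n = 2 each), a difference of -1.11 ± 0.24 (SE, 2.17-fold, adjusted p = 0.00749, 95% interval -1.63 to -0.60). Later the CSMN minus CPN differences did not pass the test. P3 gave 0.08 ± 0.22, P6 gave -0.08 ± 0.24 and P14 gave -0.46 ± 0.24. The P14 value was -0.77 (adjusted p = 0.0287) without CSMN P14 replicate 1 and -0.14 (adjusted p = 0.977) without replicate 2. The E18 call was lost without CPN E18 replicate 1 (-1.06, adjusted p = 0.0568), without CSMN E18 replicate 1 (-0.87, adjusted p = 0.053), with array weights (adjusted p = 0.0976), in a model of the compared groups alone (adjusted p = 0.0954) and with the mean of all its probe sets (-0.61, adjusted p = 0.0564).

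In CSMN Dnmt3a was higher at P14 than at E18 by 1.25 ± 0.24 (SE, 2.37-fold, adjusted p = 0.00297). The P14 average was 10.26 ± 0.45, against 9.02 ± 0.35 at E18 (SD, n = 2 each). Nearly all of that difference was present at P3, since with P3 in place of E18 the change was -0.06 (adjusted p = 0.876). Without either CSMN P14 array the difference from E18 was 0.93 (adjusted p = 0.0139) or 1.56 (adjusted p = 0.00059), and it lost the test with array weights (adjusted p = 0.443) and in a model of the compared groups alone (adjusted p = 0.333). In CPN, P14 minus E18 was 0.59 ± 0.24 (adjusted p = 0.117). The difference between the types in this change was 0.66 ± 0.34 and did not pass (adjusted p = 0.316).

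Between E18 and P3 Dnmt3a rose as the mean of both types (0.71 ± 0.16, SE, adjusted p = 0.00986). By type, the group means went from 9.02 to 10.32 in CSMN and from 10.13 to 10.25 in CPN. On this probe set the step thus came mostly from CSMN, and whether it differed between the types was not tested. On 1423065_at the means went from 7.71 to 9.61 in CSMN and from 9.04 to 9.66 in CPN. On 1423063_at they went from 7.16 to 8.38 and from 7.65 to 8.30. On 1423066_at they went from 7.65 to 8.86 and from 8.07 to 8.69, so CPN rose there as well. Probe set 1423064_at went from 7.79 to 7.60 in CSMN and from 7.47 to 7.48 in CPN. Dnmt3a was the 1 member of 7 to pass in that step, in which 13.1% of all genes passed and 9.16% rose, so the count is near the background. The step was smaller after renewed quantile normalization (0.46, adjusted p = 0.0862) and after cyclic loess (0.39, adjusted p = 0.151), and it lost the test without CPN P3 replicate 1 (0.61, adjusted p = 0.0624).

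The 5 probe sets of Dnmt3a did not all show this course. For P3 minus E18 as the mean of both types, 3 of 5 rose, where 10.4% of probe sets passed. These were the brightest, 1423065_at (1.26 ± 0.27, adjusted p = 0.00833) and 1423063_at (0.94 ± 0.21, adjusted p = 0.0121). For P14 minus E18 in CSMN, where 12.6% of probe sets passed, the same 3 rose, 1423065_at by 2.55 ± 0.40 (adjusted p = 0.000895) and 1423063_at by 1.32 ± 0.32 (adjusted p = 0.0149). At E18, where 10.6% passed, 2 of 5 were lower in CSMN, the brightest and 1423065_at (-1.33 ± 0.40, adjusted p = 0.048). Probe set 1423064_at ran between 7.04 and 8.10 with no relation to the brightest over the group means (r = -0.02), and 1423066_at passed no test. At P14 the probe sets pointed both ways between CSMN and CPN, with 0.73 ± 0.40 for 1423065_at and 1.15 ± 0.46 for 1423066_at, neither past the test. In CPN, where 16% of probe sets passed, 1423063_at was the 1 of 5 that rose between E18 and P14 (1.17 ± 0.32, adjusted p = 0.0197).

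Dnmt3b, the other de novo enzyme, was close to the array medians. Its probe set 1418351_a_at had a median of 6.22 and was above all array medians on 1 of 19 arrays, CSMN P14 replicate 2, with 7.50. The other probe set lay between 5.42 and 6.36, and its 5.42 was on that same array. Dnmt3b passed no comparison. At P14 it read 6.16 and 7.50 in CSMN and 6.15 and 6.22 in CPN, a difference of 0.64 ± 0.30 (SE, adjusted p = 0.35). Without CSMN P14 replicate 1 the difference was 1.32 (adjusted p = 0.000494), and without replicate 2 it was -0.03 (adjusted p = 0.997), so 1 array decides it.

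Mbd2 was the methyl-CpG reader with calls, and its levels were between 6.64 and 8.07. CSMN read 6.64 and 7.12 on E18 arrays, 7.12, 7.34 and 7.43 on P3 arrays, 7.53 and 7.54 on P6 arrays, and 7.78 and 7.68 on P14 arrays. CPN read 7.98 and 7.56 on E18 arrays, 7.36 and 7.27 on P3 arrays, 7.26 and 7.15 on P6 arrays, and 8.07 and 8.02 on P14 arrays. In stage order the CSMN group means were 6.88, 7.30, 7.54 and 7.73, while in CPN the 2 middle stages were lowest. At E18 Mbd2 averaged 6.88 ± 0.34 in CSMN and 7.77 ± 0.30 in CPN (SD, n = 2 each), a difference of -0.89 ± 0.24 (SE, 1.85-fold, adjusted p = 0.0229).

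In CSMN, Mbd2 at P14 exceeded E18 by 0.85 ± 0.24 (SE, 1.80-fold, adjusted p = 0.0245). In CPN the same difference was 0.27 ± 0.24 and did not pass. The types did not differ past the test in this change (0.58 ± 0.33, adjusted p = 0.374). Both calls of Mbd2 were lost without CSMN E18 replicate 1, to -0.65 at E18 (adjusted p = 0.126) and to 0.61 for P14 minus E18 (adjusted p = 0.143). The E18 call was also lost without CPN E18 replicate 1 (-0.68, adjusted p = 0.184), and that for P14 minus E18 with array weights (adjusted p = 0.609), in the compared groups alone (adjusted p = 0.628) and with P3 in place of E18 (0.43, adjusted p = 0.191). The other Mbd2 probe set lay between 3.54 and 5.85, below every array median.

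Mbd1 and Mbd3 passed no comparison. Mbd1, which links methylated DNA to histone methylation through its partners, lay at 7.73 to 9.05 at E18, P3 and P6 in CSMN and at 7.93 to 9.16 in CPN. Arrays of one group differed by up to the size of the differences between groups, as in CSMN at P14 with 8.66 and 7.57. Its difference at E18 was -0.20 ± 0.42 (SE, 95% interval -1.11 to 0.70). Another Mbd1 probe set above all array medians, 1437061_at, gave -0.82 ± 0.26 at E18 without overlap of the arrays, just short of the test over all probe sets (adjusted p = 0.0561). Mbd3, the NuRD subunit, read 9.14 and 7.69 in CSMN and 9.16 and 8.34 in CPN at E18, and its lowest value, 6.45, stood beside 8.43 in CPN at P6. Its pooled SD of 0.66 was the largest of the 7, and its E18 interval ran from -1.54 to 0.87. The smallest was 0.18 for Uhrf1, on a probe set below the array medians. Changes of Mbd3 within that interval cannot be told from the spread between collections.

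**Figure D4:**
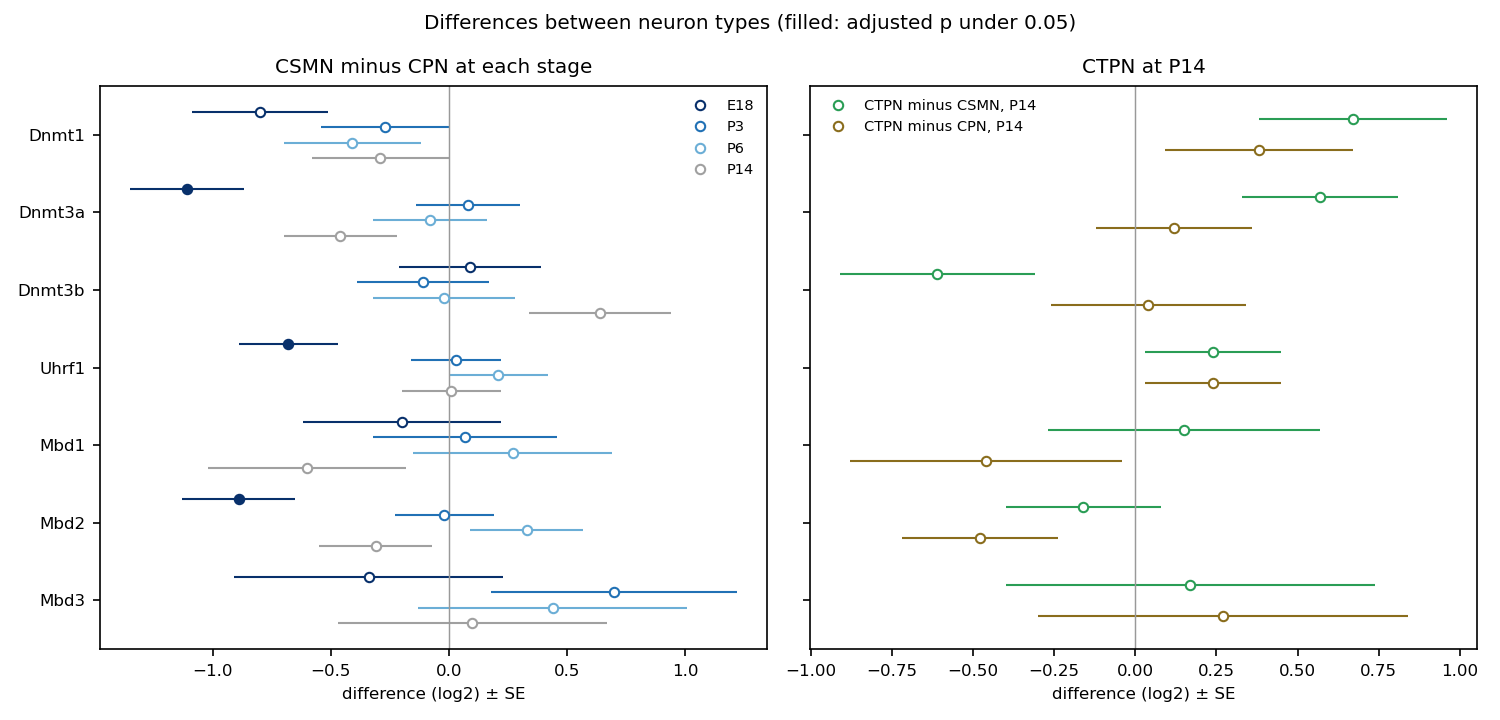
Differences between neuron types (log2 ± SE of the shared model) for the 7 genes, CSMN minus CPN at each stage and CTPN minus CSMN or CPN at P14, filled where the adjusted p is under 0.05. The filled points are Dnmt3a (-1.11), Mbd2 (-0.89) and Uhrf1 (-0.68, below the array medians in both types) at E18.

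Read across the members, the calls between CSMN and CPN were at E18. There 3 of 7 were lower in CSMN, with Uhrf1 by a probe set below the array medians in both types, where 12.9% of all genes passed and 8.94% were lower, and the median of the 7 differences was -0.68, against 0.10 over all genes. All 3 calls were lost with array weights and in a model of the compared groups alone, with the direction kept. The E18 comparison uses the CPN arrays with the dividing-cell and progenitor markers given above, whose part in it was not tested. At P3, P6 and P14 no member passed with limma, where 0.874%, 1.07% and 1.39% of genes did. By their brightest probe sets no member had an unadjusted p under 0.05 at these stages. This does not show that the types differed more at E18 than later. Dnmt1 differed by -0.80, -0.27, -0.41 and -0.29 in stage order. By the brightest probe sets, no change from E18 to P14 differed between the types past the test. As the mean of 4 stages none of 7 passed, where 8.29% of genes did, with 2 of 7 at an unadjusted p under 0.05. These were Dnmt1 (-0.44 ± 0.14, SE, adjusted p = 0.0751) and Dnmt3a (-0.39 ± 0.12, adjusted p = 0.0552). Without E18 they were -0.32 (adjusted p = 0.424) and -0.15 (adjusted p = 0.7). Dnmt3a passed with the replicate number as a block (-0.42, adjusted p = 0.0394).

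With age, 2 of 7 fell between E18 and P14 in CPN (Dnmt1 and Uhrf1), where 19.2% of genes passed and 8.98% fell. In CSMN 2 of 7 rose (Dnmt3a and Mbd2), where 15.1% passed and 9.27% rose. By their brightest probe sets none of 7 differed between the types in this change, where 5.18% of genes passed, with 1 of 7 (Uhrf1, 0.68 ± 0.29, SE, adjusted p = 0.217) at an unadjusted p under 0.05. Uhrf1 did differ on 1415810_at (3.14 ± 0.47, adjusted p = 0.00131) and with the mean of both its probe sets (1.91, adjusted p = 0.000608), with sizes that depend on background. For Dnmt1, Dnmt3a and Mbd2 a call in 1 type and not in the other is not shown to be a difference between the types. Between P3 and P6 no member passed, where 0.066% of genes did. By the brightest probe sets none had an unadjusted p under 0.05, while both other probe sets of Dnmt1 did.

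**Figure D5:**
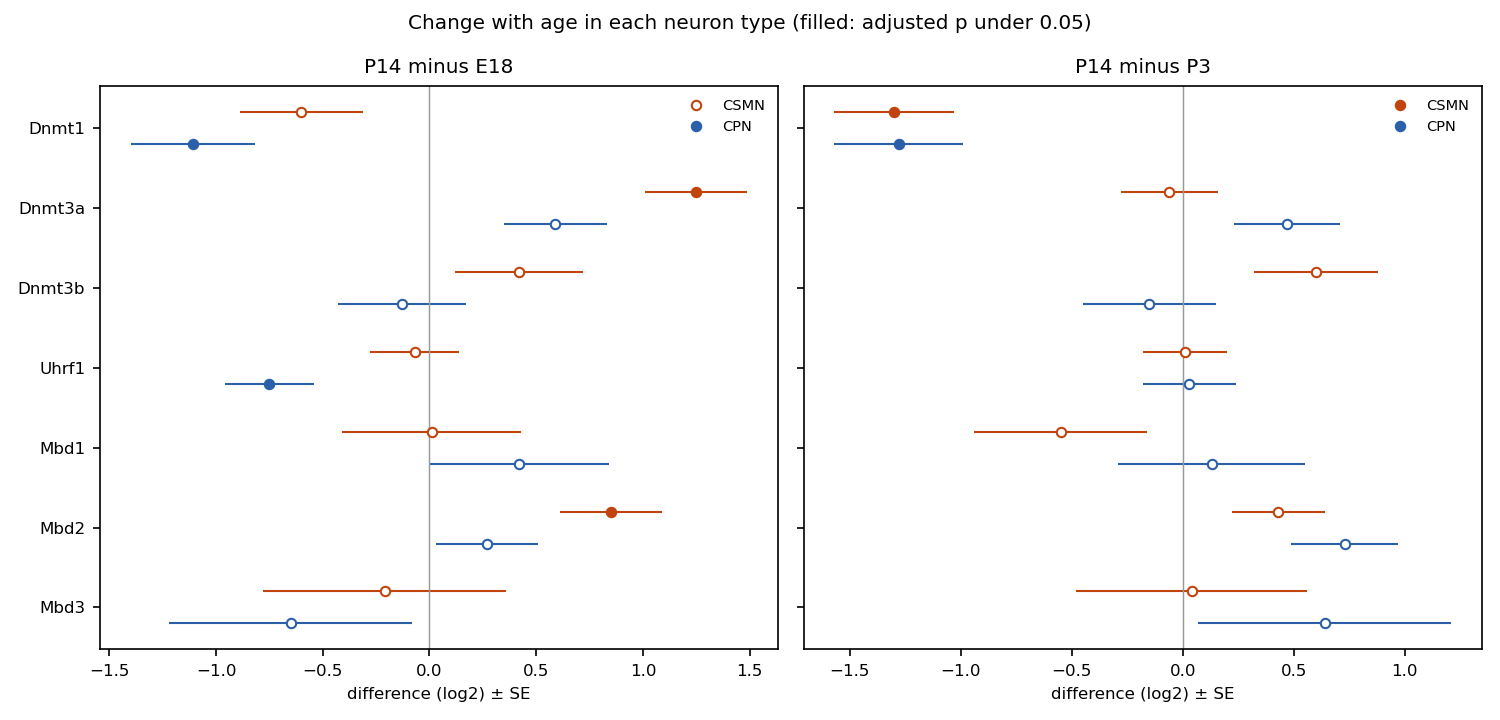
Change with age (log2 ± SE) in CSMN and CPN for the 7 genes, as P14 minus E18 and as P14 minus P3, filled where the adjusted p is under 0.05. Dnmt1 is the member filled in both types from P3 (-1.30 in CSMN and -1.28 in CPN), and Dnmt3a moves by 1.25 from E18 but by -0.06 from P3 in CSMN.

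CTPN, the visual cortex neurons, did not differ past the test from either other type at P14 in any member. Dnmt1 read 9.01 and 9.76 in CTPN, against 9.10 and 8.34 in CSMN and 9.13 and 8.88 in CPN. Dnmt3a read 10.86 and 10.81 in CTPN, against 10.58 and 9.95 in CSMN and 10.77 and 10.66 in CPN. CTPN thus held the 2 highest arrays on this probe set. On 1423065_at CTPN read 9.46 and 11.00, against 10.28 and 10.23 in CSMN. Mbd2 read 7.23 and 7.90 in CTPN, against 7.78 and 7.68 in CSMN and 8.07 and 8.02 in CPN. Against CSMN, 0.192% of genes passed and 2 of 7 members had an unadjusted p under 0.05, Dnmt1 (0.67 ± 0.29, SE, adjusted p = 0.563) and Dnmt3a (0.57 ± 0.24, adjusted p = 0.551). Without CSMN P14 replicate 1 these were 1.05 (adjusted p = 0.0213) and 0.89 (adjusted p = 0.0177), and without replicate 2 they were 0.29 (adjusted p = 0.88) and 0.26 (adjusted p = 0.869). Against CPN, where 1.06% of genes passed, no member had an unadjusted p under 0.05 by its brightest probe set. Mbd2 had the largest difference there (-0.48 ± 0.24). Other probe sets gave up to 0.60 ± 0.22 for Dnmt1 (1447877_x_at, adjusted p = 0.461) and 1.23 ± 0.46 for Dnmt3a (1423066_at, adjusted p = 0.513). The CTPN arrays on 1423066_at read 8.10 and 10.01. Neuron type and cortical area changed together here and cannot be told apart.

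Other genes of the pathway were taken from a list of 51 demethylation, partner, reader, NuRD and methyl donor genes, of which 47 were measured. At E18, 8 of 47 were lower in CSMN than in CPN and 0 higher, where 8.94% of all genes were lower and 12.9% passed, with a list median of -0.31. The largest were Gadd45g, a stress-induced gene tied to demethylation (-3.02 ± 0.43, SE, adjusted p = 0.00024), the NuRD deacetylase Hdac1 (-1.38 ± 0.18, adjusted p = 0.000152), the folate enzyme Shmt2 (-1.19 ± 0.26, adjusted p = 0.00702) and the NuRD subunit Mta1 (-1.13 ± 0.25, adjusted p = 0.00875). As the mean of 4 stages, where 8.29% of all genes passed, 3 of 47 were lower in CSMN, near the background. These were Hdac1 (-0.68 ± 0.09), the glycosylase Mbd4 (-0.52 ± 0.13) and the histone chaperone Rbbp4 (-0.46 ± 0.10). Gadd45b, a relative of Gadd45g, was the 1 of 47 that was higher (0.75 ± 0.11, adjusted p = 0.000442). It was also the 1 of 47 that differed between CTPN and CPN (1.16 ± 0.22, adjusted p = 0.0208), and 0 of 47 passed between CTPN and CSMN (3 at an unadjusted p under 0.05).

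Between E18 and P14 in CPN 12 of the 47 fell and 2 rose (list median -0.51), where 19.2% of all genes passed and 8.98% fell. In CSMN 4 fell and 2 rose (median -0.19), where 15.1% of all genes passed, so that this count is no higher than the background. Kdm2b, a CpG-binding histone demethylase, fell by 2.59 in CSMN (SE 0.55, adjusted p = 0.00553) and by 2.22 in CPN (SE 0.55, adjusted p = 0.00971). Mat2b, the regulatory subunit of the enzyme that makes the methyl donor, rose by 2.02 in CSMN (SE 0.34, adjusted p = 0.00113) and by 2.74 in CPN (SE 0.34, adjusted p = 4.22e-05). In CSMN the largest calls also took in Tet2, which oxidises methylcytosine (-2.42 ± 0.64), the folate enzyme Shmt1 (-1.32 ± 0.33), Gadd45b (1.09 ± 0.22) and the histone methyltransferase Ehmt1 (-1.13 ± 0.19), which fell in CPN as well (-1.21 ± 0.19). In CPN they took in Gadd45g (-1.98 ± 0.43), the transfer RNA methyltransferase Trdmt1 (-1.37 ± 0.21), the insulator protein Ctcf (-1.35 ± 0.40) and the remodeller Chd5 (1.28 ± 0.38). Comparisons that use the CPN E18 arrays carry the dividing-cell and progenitor markers given above, whose part in them was not tested.

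The members shared little of their course with each other over the 9 group means. Dnmt1 and Dnmt3a had r = 0.01, Dnmt3a and Mbd2 r = 0.68, Uhrf1 and Mbd3 r = 0.76, and Dnmt3b and Mbd1 r = -0.71, as descriptions over groups that share arrays of one type or age. Among other genes, those most like Dnmt1 were Dlg5, Bcl9 and Cldn34c1 (r = 0.983, 0.983 and 0.982), and those most like Dnmt3a were Pik3r4, Atxn1l and Tlcd5 (r = 0.980, 0.967 and 0.958). Mbd2 was matched most closely by Bola3, Ube2f and Tmem129 (r = 0.987, 0.972 and 0.970), Mbd1 by Ube2q2, Cdo1 and Hacd1 (r = 0.972, 0.963 and 0.960), and Mbd3 by Traf2, Cenpm and Tbc1d8b (r = 0.913, 0.912 and 0.907). For Dnmt3b these were Cmtm2a, Saa1 and Ccdc182 (r = 0.986, 0.982 and 0.982), and here CSMN at P14, with its single high array, sets the pattern.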

How the data were processed

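RNA of 19 samples in 9 groups was measured on Affymetrix mouse expression arrays. The deposited table holds log2 values per probe set (3.17 to 14.4) that the authors made with RMA, per the submitters' processing notes. The software version is not given in the sources used here. Values were used as deposited. Of 45101 probe sets, 34945 carry 1 symbol, and the brightest per symbol gave 18193 genes. Symbols were matched to RefSeq by gene identifier for 34741 probe sets, with 0 changed.

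One limma model of 9 group means gave 13 comparisons by moderated tests, two-sided, with p adjusted over all genes by the Benjamini-Hochberg method (10 residual and 4.46 prior degrees of freedom). The model was tested on simulated data. A log2 change of 1 was recovered for 27% of changed genes in CSMN minus CPN at E18. It was 29% for P14 minus E18 in CPN, 34% for CTPN minus CSMN and 87% for the mean of 4 stages. A change of 2 was recovered for 86% or more. Of the calls, 4.96% to 6.5% were false. A member without a call is therefore not shown to be unchanged. All 7 members are named in every comparison, up to 4 related genes per direction in 6 of the comparisons, and 3 genes per member by likeness. Members and lists were chosen with earlier results of these data known. The groups, comparisons and settings below come from the labels and that earlier work, and the tests of every probe set and of the other Uhrf1 probe set were added later. Some genes of the related list were not analysed here. The number of arrays limits the precision, and most groups hold 2. No array date is used, so batches were not tested. Analyses used R 4.3.3, limma 3.58.1, Python 3.11.15 and matplotlib 3.10.9.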

Additional observations from a re-analysis of the deposited data

Results flagged for a closer look

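The change of Uhrf1 between E18 and P14 differed between the types when read on probe set 1415810_at. P14 minus E18 was 0.17 ± 0.33 in CSMN and -2.97 ± 0.33 in CPN (SE), and the test of the difference itself gave 3.14 ± 0.47 (adjusted p = 0.00131 over 34945 probe sets). What drew attention is that this test passed, while the brighter probe set by mean, 1415811_at, gave 0.68 ± 0.29 (adjusted p = 0.217). The 2 CPN E18 arrays, at 7.03 and 8.02, are the ones above the array medians, and they are also the arrays with dividing-cell marker medians of 9.42 to 9.66. The other 3 groups are dimmer than the array medians, and 3.14 therefore depends on background. Against the highest array median the average of the 2 CPN E18 arrays is 1.87-fold higher, and the lower array is nearer to that median. The part of those markers in this difference was not tested.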

How the results depend on the processing

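Of 912 member tests under other settings with all arrays of a group in use, 877 kept their side of the threshold, most of them tests without a call, 15 lost a call, 18 gained one and 2 reversed. Of 92 tests of the 9 calls themselves, 17 lost the call or reversed, and 49 tests changed sign with no call either way. The 2 reversals are changes of sign with P3 in place of E18, which is a different comparison. P14 minus P3 was 0.03 ± 0.21 for Uhrf1 in CPN and -0.06 ± 0.22 for Dnmt3a in CSMN (SE). Neither was a call in the other direction. The count of 7 members past the test moved as follows. For the mean of 4 stages (0) it was 1 with quantile normalization, cyclic loess, the replicate block or the other Uhrf1 probe set and 2 with the mean of all probe sets. At E18 (3) it was 0 with array weights or the compared groups alone. For P14 minus E18 it was 1 in CPN (2) with the genes above median brightness, where Uhrf1 was not tested, with the compared groups alone or with P3 in place of E18, and in CSMN (2) it was 0 with array weights or the compared groups alone and 1 with P3. For the interaction (0) it was 1 with the mean of all probe sets or the other Uhrf1 probe set. For P3 minus E18 (1) it was 0 with quantile normalization or cyclic loess, and 2 with the mean of all probe sets, an intensity trend, the compared groups alone or the other Uhrf1 probe set. For P14 minus P6 (1) it was 2 with the mean of all probe sets. Leaving out 1 array gave 0 to 3 for the mean of 4 stages, 0 to 4 at E18, 0 to 2 at P14, 0 to 3 in CPN and 1 to 4 in CSMN for P14 minus E18, 0 to 1 for the interaction, 0 to 2 for P3 minus E18, 1 to 3 for P14 minus P6 and 0 to 3 for CTPN minus CSMN. The causes were not tested.

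Replicate numbers were not taken to pair the arrays, since not every pair of groups passed 0.1: deviations of same-numbered arrays correlated between -0.22 and 0.59 over 36 pairs of groups (median 0.08), with 16 over 0.1. The replicate block brought Dnmt3a past the test in the mean of 4 stages (-0.42, adjusted p = 0.0394).

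The count over all genes moved more than 1.5 times in every comparison, given here as the count, then its range under other settings and with 1 array left out. Between CSMN and CPN it was 1509 (747 to 2178, 1038 to 5262) for the mean of 4 stages, 2350 (843 to 3008, 1121 to 4253) at E18, 159 (139 to 3176, 29 to 341) at P3, 195 (68 to 875, 53 to 383) at P6 and 253 (0 to 391, 40 to 6256) at P14. For P14 minus E18 it was 2751 (259 to 3788, 1770 to 4970) in CSMN, 3484 (1480 to 4326, 2137 to 4582) in CPN and 943 (21 to 1513, 453 to 3597) for the interaction. It was 2377 (1943 to 3064, 1262 to 4172) for P3 minus E18, 12 (9 to 389, 2 to 36) for P6 minus P3 and 2342 (1046 to 3136, 1339 to 7318) for P14 minus P6. For CTPN it was 35 (0 to 43, 12 to 5143) against CSMN and 193 (119 to 588, 51 to 395) against CPN. The highest count with 1 array left out came without a CSMN P14 array in all 13 comparisons. Signals near the array medians limit what the values of Uhrf1 and Dnmt3b can show.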

Other observations

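The spread between collections differed among the 7 genes. The pooled SD within groups was 0.18 for Uhrf1 (1415811_at), 0.22 for Mbd2, 0.23 for Dnmt3a, 0.31 for Dnmt1, 0.32 for Dnmt3b, 0.48 for Mbd1 and 0.66 for Mbd3. The group means of these genes ranged over 0.89, 1.16, 1.82, 1.57, 0.69, 0.91 and 1.32 in the same order. The Uhrf1 values come from a probe set below the array medians on all arrays. Its other probe set, 1415810_at, had a pooled SD of 0.36. For Dnmt3b the SD takes in CSMN P14 with 6.16 and 7.50, and its other probe set had 0.17.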
